A study of Sus scrofa with 8 samples.

Results

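PARP9, DTX3L, PARP14 and PARP12 were followed through retinal nuclei of pigs that had received an adeno-associated virus (AAV) vector or vehicle in the eye. The 4 genes were chosen by name, as ADP-ribosylation genes known to be switched on by interferon, and are 4 of the 35683 genes counted. The rule that names them uses no measured value, but they were proposed with earlier results of these data known. PARP enzymes transfer ADP-ribose from NAD to proteins, and a subset of them belongs to the antiviral program that type I and type II interferons start through their receptors. PARP9 carries macrodomains that read ADP-ribose and works as a partner of DTX3L, a ubiquitin ligase. PARP14 is a macrodomain enzyme that adds single ADP-ribose units, and PARP12 is a zinc-finger enzyme of the same kind that restrains translation of viral RNA.

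The samples were 8 retinas of 6 female Yucatan minipigs. Every animal had Vitrase, a hyaluronidase, injected into both vitreous chambers before dosing, and methylprednisolone every week. AAV2.7m8/CAG-GFP, a capsid variant of AAV2 that carries GFP under the ubiquitous CAG promoter, was given intravitreally at 5e11 vg/eye in the AAV arm, and the control arm received vehicle by the same route. At week 2 both eyes of 1 AAV animal (7221) and 1 vehicle animal (7222) were sequenced, and at week 4 the left eyes of 2 AAV animals (7248 and 7249) and 2 vehicle animals (7250 and 7251). Each group carries a batch label that no other group has, and the effects of batch and of AAV cannot be told apart.

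Nuclei sorted on DAPI were sequenced over 4 lanes of a droplet 3′ kit per retina. Of 388491 barcodes, 350537 nuclei were kept, with 111704702 to 164085422 UMIs per retina and a median of 2066 to 3286 UMIs per nucleus. Lanes shared 18 to 65 barcodes per pair, at most 0.514% of the smaller lane. A gate on fixed marker genes placed 282501 nuclei (80.6%) in a class, and 9 classes with at least 20 nuclei in every retina were compared. Classes are named after the markers that gated them, so that "rods" means rod-like nuclei. Of 135 gating markers 118 were highest in their own class, as were 16 of 29 markers that the gate had not used. VIM, SOX2 and CLU, held out as Müller glia markers, were highest in astrocytes, and PTPRC, held out for microglia, in lymphocytes. Levels are given as CPM, counts per 1000000, the UMIs of a gene scaled to that many UMIs of the class in that retina. In rods of the vehicle retina from animal 7250 (week 4, replicate 1), 3 of the 4 genes stood apart from the other vehicle retinas, and the rod results of week 4 and of the test between weeks are given with and without it. The comparison between classes was not fitted without it.

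In the RefSeq annotation of Sscrofa11.1, the build the authors aligned to, 3 of the 4 genes are neighbours on chromosome 13. PARP14 (ENSSSCG00000011874) lies at chr13:137809499-137865383 on the minus strand, DTX3L (ENSSSCG00000011876) at chr13:137950266-137961381 on the minus strand, and PARP9 (ENSSSCG00000027709) at chr13:137960987-138000862 on the plus strand. DTX3L and PARP9 start head to head and overlap by 395 bases, while 84882 bases and 1 protein-coding gene separate PARP14 from DTX3L. PARP12 (ENSSSCG00000016502) lies apart, at chr18:9673841-9715169 on the plus strand. Whether reads were counted by strand is not given in the sources used here, so UMIs from the overlap of DTX3L and PARP9 are uncertain as to gene. The overlap is that of RefSeq, while the counts carry Ensembl identifiers (ENSSSCG), and the overlap in the annotation used for counting was not measured.

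Letters of the interferon-stimulated response element, a DNA element of genes that type I interferon switches on, were searched as GAAA, any 2 bases and GAAA on both strands from 500 bases before to 50 bases after each annotated start. Of 19560 genes, 10.7% held this paired GAAA motif, and 3 of the 4 genes did. The letters TTCNNNGAA, the interferon-gamma activated site, stood in 19.2% of genes and in 2 of the 4. PARP9 has 8 annotated starts and so a wider window than DTX3L with 1. The sequences are shown because DTX3L and PARP9 share a single stretch, with capitals marking the letters searched. In the shared stretch, chr13:137961404-137961432 read on the minus strand, 2 overlapping matches are centred 34 and 40 bases before the DTX3L start and on starts of PARP9. In the PARP12 window, chr18:9674884-9674913 on the plus strand, the match is on the opposite strand, centred 374 bases before a start. The PARP14 window held no paired GAAA motif, and its stretch, chr13:137865733-137865761 on the plus strand, shows TTCNNNGAA centred 364 bases before a start. A match describes letters in a window and is not shown here to be a bound site.
DTX3L and PARP9: tctcgagGAAAGCGAAACTGAAActttgc
PARP12: cagccggaggTTTCGGTTTCgtttccagcc
PARP14: tatacaggtgTTCCTGGAAcaagttagga

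All 4 genes were higher in AAV than in vehicle retinas across the retina, in neurons and glia alike. The 4 genes in 9 classes made 36 pairs of gene and class, and at week 4 the levels of both AAV retinas lay above both vehicle retinas in 36 of them. The same held for 24.4% of genes in rods, 18.7% in cones, 22.9% in bipolar cells, 24.3% in amacrine cells, 29.6% in horizontal cells, 19.3% in retinal ganglion cells (RGC), 30.7% in Müller glia, 26.3% in astrocytes and 35.2% in microglia. In 35 of 36 pairs all 4 AAV retinas of both weeks lay above all 4 vehicle retinas. The exception was PARP14 in RGC, where the left AAV eye of week 2 had 6 UMIs (1.75 CPM). For comparison, all 4 AAV retinas lay above all 4 vehicle retinas for 3.81% of genes in rods, 2.67% in cones, 4.13% in bipolar cells, 5.46% in amacrine cells, 4.94% in horizontal cells, 2.91% in RGC, 8.55% in Müller glia, 2.93% in astrocytes and 7.68% in microglia.

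**Figure D1:**
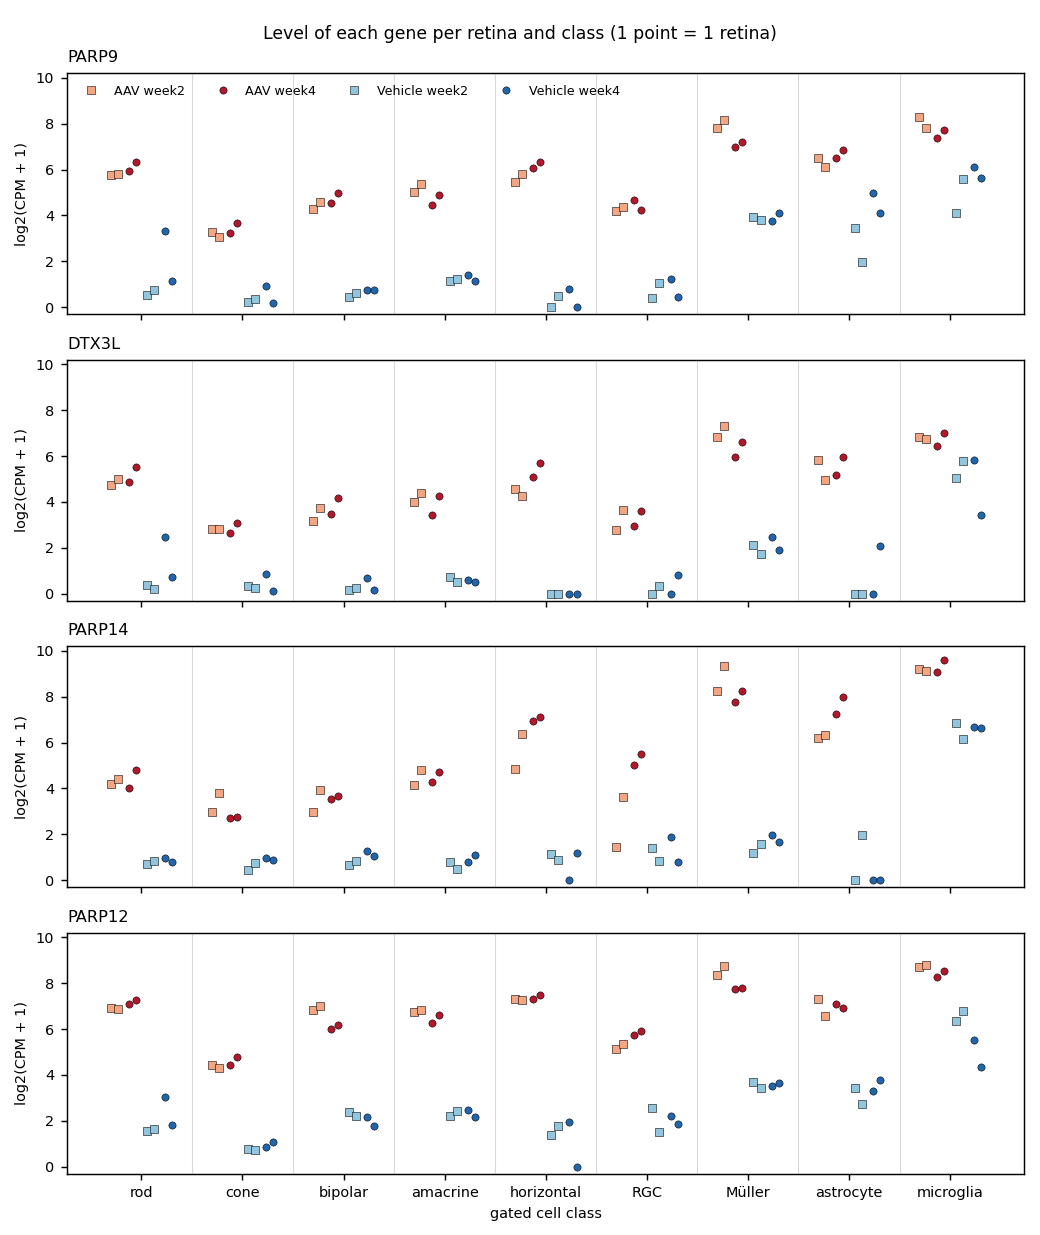
Level of PARP9, DTX3L, PARP14 and PARP12 as log2(CPM + 1) on the y axis in each of 9 gated classes on the x axis, with 1 point per retina, squares for week 2, circles for week 4, red shades for AAV and blue shades for vehicle. Red points lie above blue points in every class and gene except PARP14 in RGC, where a week 2 AAV eye at 1.75 CPM lies among the vehicle retinas.

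At week 4, 2 AAV were compared with 2 vehicle animals by edgeR's quasi-likelihood test on sums per retina, with Benjamini-Hochberg adjustment over all genes tested in a class and a threshold of 0.05. SE with an edgeR value, here and in the tests between weeks and classes, is the absolute log2 difference over the square root of edgeR's F statistic. It restates the test and is not an interval for the size of the difference. With few vehicle UMIs it can be far narrower than the counting error of the ratio. Of the 36 pairs, 35 were called higher in AAV and none lower. All 4 genes were called in rods, where 5.87% of tested genes were called higher, in cones (0.956%), in bipolar cells (1.61%), in amacrine cells (1.48%), in horizontal cells (2.98%), in RGC (2.17%), in Müller glia (11.3%) and in astrocytes (6.04%). In microglia 3 of the 4 were called, against 6.58% of tested genes, and DTX3L missed the threshold (adjusted p = 0.0579). The retinas of a group came from separate animals, and 2 against 2 cannot go below 0.333 in an exact permutation test, so each call rests on the spread that edgeR shares across genes. In RGC, where each vehicle retina held 100 to 140 nuclei, leaving out either vehicle retina left 0 genes called in that class by edgeR, and with them all 4 calls (adjusted p = 0.528 without replicate 1 and 0.604 without replicate 2).

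**Figure D2:**
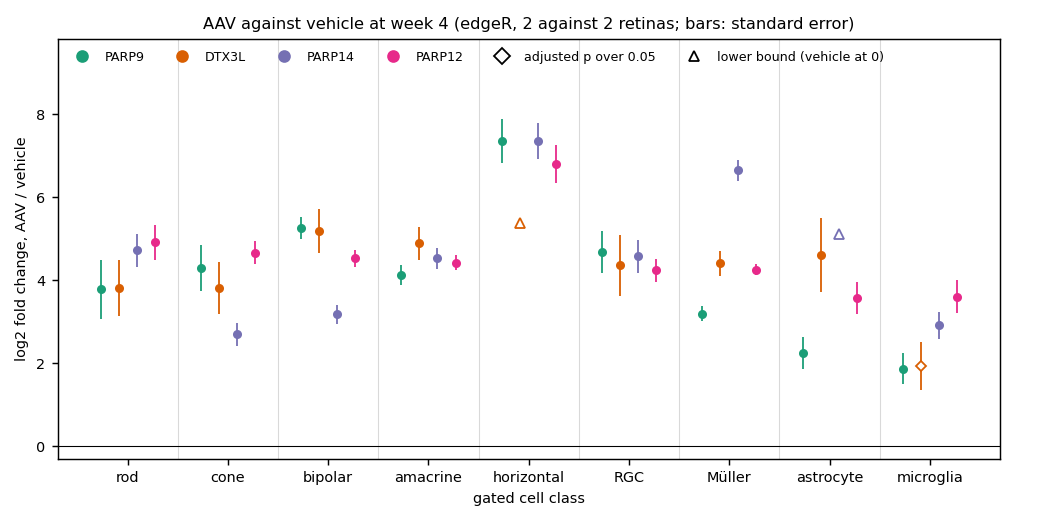
Log2 fold change of AAV over vehicle at week 4 on the y axis, by gated class on the x axis and gene in colour, from edgeR with 2 against 2 retinas. Bars are the SE derived from edgeR's F statistic and do not cover the counting error of few vehicle UMIs. The open diamond is DTX3L in microglia (edgeR adjusted p = 0.0579). The 2 triangles are lower bounds, at least 41.3-fold for DTX3L in horizontal cells and at least 34.7-fold for PARP14 in astrocytes, whose vehicle retinas had no UMI.

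PARP9, the ADP-ribose reader of the PARP9 and DTX3L pair, was at 1.60 CPM or less in vehicle neurons other than rods. In bipolar cells, which carry photoreceptor signals inward, it measured 22.2 and 30.1 CPM in the AAV retinas of week 4 and 0.679 and 0.693 CPM in the vehicle retinas. At week 2 the AAV eyes held 18.7 and 23.1 CPM and the vehicle eyes 0.348 and 0.547 CPM. Every AAV value exceeded every vehicle value by far more than the gap between retinas of a group, and the week 4 log2 difference was 5.26 (SE 0.26, edgeR adjusted p = 2.77e-04). Amacrine cells, the inhibitory interneurons, held 21.0 and 28.3 CPM in AAV against 1.60 and 1.23 CPM in vehicle retinas at week 4, a log2 difference of 4.12 (SE 0.23, edgeR adjusted p = 4.97e-05). In RGC the level was 24.1 and 18.0 against 1.34 and 0.371 CPM. The vehicle values in RGC rested on 4 UMIs in all, and the log2 difference was 4.68 (SE 0.51, edgeR adjusted p = 9.89e-05), or 5.72 without vehicle replicate 1 and 3.98 without vehicle replicate 2, neither of them called.

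In horizontal cells, which feed back onto photoreceptors, PARP9 was at 66.1 and 79.8 CPM in the AAV retinas of week 4 and at 0.707 and 0 CPM in the vehicle retinas. With 1 vehicle UMI against 193 in AAV, the ratio was 217 with a 95% counting interval of 38.6 to 8631. The log2 difference was 7.36 (SE 0.53, edgeR adjusted p = 6.27e-05), or 6.42 without vehicle replicate 2. This SE is far narrower than the counting interval of the ratio. Vehicle replicate 1 held that UMI, and the 9.66 fitted without this retina depends on how a vehicle count of 0 is fitted. PARP9 in cones measured 8.35 and 11.8 against 0.886 and 0.141 CPM, a log2 difference of 4.29 (SE 0.55, edgeR adjusted p = 0.0212) that ran from 3.54 without vehicle replicate 2 to 6.17 without vehicle replicate 1. Cones thus had the lowest AAV level of PARP9 of the 9 classes. Müller glia, the radial support cells of the retina, held 222 and 285 CPM in the AAV eyes of week 2 and 125 and 145 CPM at week 4, while the 4 vehicle retinas lay between 12.7 and 16.3 CPM. The groups did not overlap, and the week 4 log2 difference was 3.19 (SE 0.18, edgeR adjusted p = 4.29e-05).

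Astrocytes showed 90.3 and 114 CPM of PARP9 in AAV against 30.8 and 16.0 CPM in vehicle retinas at week 4. Their log2 difference was 2.24 (SE 0.39, edgeR adjusted p = 0.00678), and it missed the threshold without vehicle replicate 2 (1.79, adjusted p = 0.0517). In the microglia class, whose make-up differed between arms as given below, PARP9 was at 163 and 207 against 67.7 and 48.7 CPM at week 4. This was the smallest fitted difference of any gene and class (1.87, SE 0.38, edgeR adjusted p = 0.00666), and it also missed the threshold without vehicle replicate 2 (1.72, adjusted p = 0.131).

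DTX3L is the ubiquitin ligase that pairs with PARP9. In horizontal cells it had no UMI in any of the 4 vehicle retinas, and 33.0 and 50.6 CPM in the AAV retinas of week 4. Against a floor of 3 counts over the vehicle group, that is at least 41.3-fold higher at week 4, and the 22.6 and 18.0 CPM of week 2 were at least 33.0-fold higher. Müller glia held 113 and 160 CPM in the AAV eyes of week 2 and 61.5 and 96.5 CPM at week 4. In the vehicle retinas the same cells held 3.40 and 2.31 CPM at week 2 and 4.49 and 2.78 CPM at week 4. All AAV retinas were above all vehicle retinas, and the week 4 log2 difference was 4.40 (SE 0.31, edgeR adjusted p = 1.19e-04).

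In bipolar cells DTX3L reached 9.98 and 17.0 CPM against 0.622 and 0.116 CPM at week 4. Its log2 difference was 5.18 (SE 0.53, edgeR adjusted p = 0.00562), and 6.83 without vehicle replicate 1 or 4.43 without vehicle replicate 2. Amacrine cells held 9.84 and 18.0 CPM in AAV and 0.515 and 0.409 CPM in vehicle retinas, a log2 difference of 4.89 (SE 0.39, edgeR adjusted p = 3.25e-04). In cones DTX3L was at 5.27 and 7.35 against 0.822 and 0.0704 CPM. The cone difference of 3.81 (SE 0.63, edgeR adjusted p = 0.0441) missed the threshold with DESeq2 (adjusted p = 0.0947) and without vehicle replicate 2 (2.97, adjusted p = 0.0871), and was 6.42 without vehicle replicate 1. RGC had 47 AAV and 2 vehicle UMIs, a ratio of 21.9 (95% counting interval 5.73 to 186), and without a filter on low counts the RGC call was lost (adjusted p = 0.166). The RGC log2 difference of 4.36 was 3.56 without vehicle replicate 1 and 7.50 without vehicle replicate 2, neither of them called. As vehicle replicate 2 held the 2 vehicle UMIs of RGC, the size of 7.50 depends on how a vehicle count of 0 is fitted. Astrocytes had 97 AAV UMIs and 1 vehicle UMI, a ratio of 24.7 (4.33 to 985), and their call was lost without AAV replicate 2 (adjusted p = 0.114). Their log2 difference of 4.60 was 3.90 without vehicle replicate 1. Vehicle replicate 2 held the 1 vehicle UMI, and the 8.21 fitted without that retina depends on how a vehicle count of 0 is fitted.

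Microglia were the exception for DTX3L. Their AAV retinas held 113, 105, 86.2 and 126 CPM and their vehicle retinas 32.3, 54.8, 56.4 and 9.74 CPM, in the order week 2 left, week 2 right, week 4 replicate 1 and replicate 2. The groups did not overlap, but the vehicle values of week 4 rested on 6 UMIs. The log2 difference was 1.93 (SE 0.59, edgeR adjusted p = 0.0579), or 3.68 (adjusted p = 0.0254) without vehicle replicate 1 and 1.18 (adjusted p = 0.413) without vehicle replicate 2.

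Rods, the dim-light photoreceptors and the most numerous class, gave a large response in all 4 genes but an uneven vehicle arm, and lymphocyte markers summed to a higher level in AAV rods at week 4 (23.0 to 33.1 against 9.73 to 11.4 CPM). PARP9 in rods measured 52.5 and 54.1 CPM in the AAV eyes of week 2 and 59.9 and 79.8 CPM at week 4. Vehicle rods held 0.430 and 0.668 CPM at week 2, and at week 4 9.09 CPM in replicate 1 and 1.18 CPM in replicate 2. The AAV retinas were above the vehicle retinas throughout, and replicate 1 was the vehicle retina nearest to them. DTX3L followed the same course, with 25.9, 30.9, 28.4 and 45.4 CPM in the AAV retinas in the order given for microglia and 0.307, 0.141, 4.56 and 0.657 CPM in the vehicle retinas. PARP12 was at 120, 117, 134 and 154 CPM in AAV and at 1.97, 2.11, 7.22 and 2.56 CPM in vehicle rods. PARP14 was at 17.2, 20.6, 15.2 and 27.1 CPM in AAV rods, and its vehicle rods did not set replicate 1 apart, with 0.646, 0.773, 0.953 and 0.723 CPM.

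**Figure D3:**
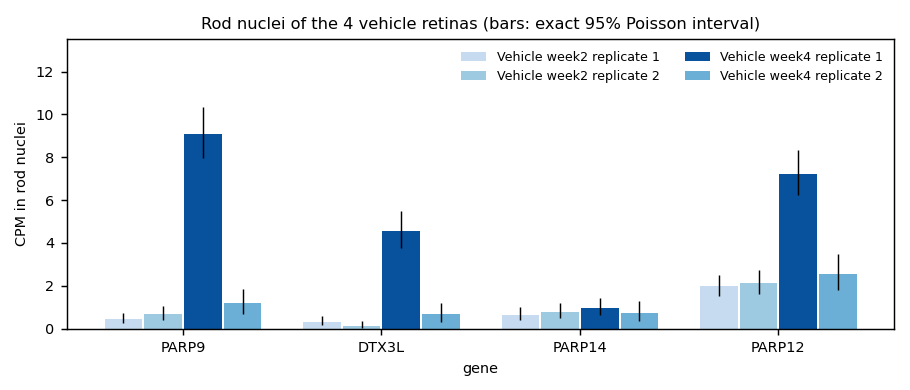
CPM of the 4 genes on the y axis in rod nuclei of each of the 4 vehicle retinas, with bars starting at 0 and exact 95% Poisson intervals that cover counting error only. Replicate 1 of week 4 stands above the other 3 retinas for PARP9 (9.09 CPM), DTX3L (4.56 CPM) and PARP12 (7.22 CPM), and not for PARP14 (0.953 CPM).

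The elevated level in vehicle replicate 1 was spread thinly over its rods. PARP9 gave 229 UMIs in 206 of 14876 rod nuclei with at most 4 in a nucleus, and all 4 lanes took part, with 40 to 83 UMIs each. DTX3L gave 115 UMIs in 108 nuclei and 24 to 35 per lane. UMIs of both genes were held by 3 nuclei, where the product of the single shares comes to 1.50 nuclei. For PARP9 and PARP12 it was 7 nuclei against 2.44, and for PARP9 and PARP14 0 against 0.332. This retina had no EGFP UMI in 43734 nuclei. The 10 genes most raised in rods of this retina were ranked by log2 above the mean of the other 3 vehicle retinas. PTPN14 (2.61) came first, then PARP9 (2.52), CADPS2 (2.43), CDKL4 (2.03) and DTX3L (2.02). Next were SP140 (1.97), CENPS (1.83), SP110 (1.70), COL24A1 (1.48) and TMEM268 (1.47). Of these, SP140 and SP110 are nuclear body proteins induced by interferon. MX1 in these rods was at 2.10 CPM, against 1.41 to 2.50 CPM in the other 3, and IFIT1 at 0.397 CPM against 0.176 to 0.591 CPM. ISG15, a ubiquitin-like protein, was at 0.437 CPM against 0.422 to 0.526 CPM, IRF7 at 0.953 CPM against 0.769 to 1.38 CPM and STAT2 at 108 CPM against 86.7 to 112 CPM. IRF9 and USP18 were below the other 3, at 10.7 CPM against 14.0 to 19.8 CPM and at 4.05 CPM against 4.89 to 7.36 CPM. Müller glia of this retina held 12.7 CPM of PARP9, below the 12.9 to 16.3 CPM of the other 3 vehicle retinas. Their DTX3L was above the other 3 (4.49 against 2.31 to 3.40 CPM), as was their PARP14 (2.93 against 1.28 to 2.18 CPM). Cones of this retina were also above for PARP9 (0.886 against 0.141 to 0.268 CPM) and DTX3L (0.822 against 0.0704 to 0.242 CPM). In bipolar cells DTX3L was above (0.622 against 0.116 to 0.168 CPM) and PARP9 was not. PARP12 lay within the range of the others in Müller glia, cones and bipolar cells.

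With all 4 retinas the rod log2 difference at week 4 was 3.77 for PARP9 (SE 0.71, edgeR adjusted p = 0.0278) and 3.81 for DTX3L (SE 0.67, edgeR adjusted p = 0.0243). For PARP12 it was 4.91 (SE 0.43, edgeR adjusted p = 0.00422) and for PARP14 4.72 (SE 0.40, edgeR adjusted p = 0.00381). Without vehicle replicate 1 the same values were 5.98 for PARP9 (adjusted p = 0.0031), 5.91 for DTX3L (0.00789), 5.91 for PARP12 (0.00173) and 4.98 for PARP14 (0.017), with the remaining vehicle retina assumed to vary like the AAV pair. Without vehicle replicate 2 they were 3.02 for PARP9 and 3.10 for DTX3L, and both calls held. Every rod call stood with either vehicle retina, while the size of the PARP9 and DTX3L differences depended on which was used. In simulated rod counts 15.45% of edgeR's calls were false, above its nominal rate, so the rod adjusted p-values may be too small. Of the other classes only microglia were simulated for this test, with 5.36% of calls false.

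PARP14, a larger macrodomain enzyme, gave a wide gap between arms in Müller glia. Their AAV retinas held 304 and 647 CPM at week 2 and 219 and 306 CPM at week 4. Their vehicle retinas held 1.28 and 1.97 CPM at week 2 and 2.93 and 2.18 CPM at week 4. No AAV retina came near a vehicle retina, and the mean of week 4 was 263 ± 61.7 CPM (SD, n = 2) against 2.55 ± 0.524 CPM (SD, n = 2). The log2 difference was 6.65 (SE 0.25, edgeR adjusted p = 1.05e-05), with 6.39 to 6.91 on leaving out 1 retina at a time. The response reached a large share of the nuclei. At week 4, 52.2% and 63.8% of AAV Müller nuclei had at least 1 PARP14 UMI against 0.617% and 0.409% of vehicle Müller nuclei, and after each nucleus was thinned to 1000 UMIs the shares were 18.4% and 24.9% against 0.295% and 0.287%. Thinning left out 3 and 0 AAV nuclei and 307 and 464 vehicle nuclei as too shallow. The Müller class itself was smaller in AAV retinas of week 4, with 1674 and 663 nuclei against 4374 and 4646, and the part of that loss in the level was not tested.

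In astrocytes PARP14 measured 149 and 255 CPM in AAV retinas at week 4, with no UMI in either vehicle retina, at least 34.7-fold higher against a floor of 3 counts over the group. At week 2 the AAV eyes had 72.5 and 80.2 CPM and the vehicle eyes 0 and 2.86 CPM. Horizontal cells held 28.2 and 81.6 CPM at week 2 and 123 and 137 CPM at week 4, against 0 to 1.27 CPM in the 4 vehicle retinas. The week 4 ratio in horizontal cells, 344 UMIs to 2, was 194 (95% counting interval 53.2 to 1606). Their log2 difference of 7.35 (SE 0.44, edgeR adjusted p = 2.52e-05) became 6.50 without vehicle replicate 1. Without vehicle replicate 2, which held the 2 vehicle UMIs, it was 10.43, a size that depends on how a vehicle count of 0 is fitted. Microglia held PARP14 at 545 and 770 CPM in AAV and 102 and 97.4 CPM in vehicle retinas, a log2 difference of 2.91 (SE 0.32, edgeR adjusted p = 9.95e-05). Microglia were the only class in which every vehicle retina was above 50 CPM of PARP14, with 70.5 to 113 CPM.

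PARP14 in amacrine cells, RGC, bipolar cells and cones had fitted week 4 differences from 2.69 to 4.57. In amacrine cells it was at 18.5 and 25.2 against 0.744 and 1.12 CPM at week 4, with a log2 difference of 4.52 (SE 0.26, edgeR adjusted p = 5.46e-05). In RGC it was at 31.6 and 44.8 against 2.68 and 0.742 CPM at week 4, with a log2 difference of 4.57 (SE 0.41, edgeR adjusted p = 1.8e-05), or 5.65 without vehicle replicate 1 and 3.86 without vehicle replicate 2, neither of them called. In RGC of week 2 it was at 1.75 and 11.4 CPM in the AAV eyes and 1.62 and 0.801 CPM in the vehicle eyes, and the left AAV eye lay within the range of the vehicle retinas. Bipolar cells held 10.7 and 11.8 against 1.41 and 1.10 CPM at week 4, a log2 difference of 3.17 (SE 0.23, edgeR adjusted p = 0.00123). In cones the values were 5.54 and 5.70 against 0.949 and 0.845 CPM. The cone difference of 2.69 (SE 0.28, edgeR adjusted p = 0.00959) missed the threshold without vehicle replicate 2 (adjusted p = 0.0743). When nuclei with markers of more than 1 class were kept, it rose to 3.85 in cones and to 3.77 in bipolar cells.

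PARP12, the zinc-finger enzyme, had the most UMIs of the 4 genes, 79401 over the 8 retinas against 43718 for PARP14, 37047 for PARP9 and 19433 for DTX3L. At week 4 it had the narrowest range of fitted log2 differences over classes, from 3.57 to 6.81, which was not tested. In Müller glia it measured 211 and 218 CPM in AAV and 10.5 and 11.6 CPM in vehicle retinas at week 4, a log2 difference of 4.25 (SE 0.14, edgeR adjusted p = 7.31e-06). Bipolar cells held 62.5 and 71.3 against 3.51 and 2.37 CPM, and amacrine cells 75.0 and 97.1 against 4.52 and 3.53 CPM. Their log2 differences were 4.52 (SE 0.20) and 4.42 (SE 0.18), with edgeR adjusted p-values of 1.72e-04 and 1.05e-05. In none of these classes did an AAV retina of either week come within 10-fold of a vehicle retina of the same week.

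RGC held 53.1 and 58.6 against 3.57 and 2.60 CPM at week 4 (log2 difference 4.24, SE 0.28, edgeR adjusted p = 6.61e-07). Astrocytes held 134 and 120 against 8.80 and 12.8 CPM (3.57, SE 0.39, adjusted p = 7.56e-04), and microglia 308 and 366 against 45.1 and 19.5 CPM (3.60, SE 0.40, adjusted p = 1.07e-04). On leaving out 1 retina at a time the microglia difference ran from 3.17 to 4.36, the highest without vehicle replicate 1. Horizontal cells, for which 5 of 9 gating markers were highest in their own class, had 157, 153, 157 and 179 CPM of PARP12 in the 4 AAV retinas and 1.58, 2.44, 2.83 and 0 CPM in the vehicle retinas. Their week 4 log2 difference of 6.81 (SE 0.46, edgeR adjusted p = 4.31e-05) rested on 4 vehicle UMIs and was 5.75 without vehicle replicate 2. Without vehicle replicate 1, which held all 4, it was 10.86, a size that depends on how a vehicle count of 0 is fitted. In cones PARP12 was at 20.4 and 26.9 against 0.822 and 1.13 CPM (4.66, SE 0.28, edgeR adjusted p = 0.00167).

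At week 2 each arm was 1 animal, so no test was made, and both eyes were summed for a ratio whose 95% interval covers counting error only. In 35 of 36 pairs AAV was at least 4-fold above vehicle. The share of genes at least 4-fold higher was 1.13% in rods, 0.996% in cones, 0.853% in bipolar cells, 0.956% in amacrine cells, 1.16% in horizontal cells, 0.831% in RGC, 2.45% in Müller glia, 2.10% in astrocytes and 2.82% in microglia. DTX3L in microglia, at 2.50-fold (1.29 to 5.31), was the pair below 4-fold. The highest ratio with more than 3 vehicle UMIs was that of PARP14 in Müller glia, 325 (240 to 454), where the right AAV eye had more than the left. Rods gave 126 for DTX3L (74.5 to 230), 98.8 for PARP9 (70.1 to 144), 58.0 for PARP12 (48.5 to 70.0) and 27.2 for PARP14 (19.9 to 37.9). At the low end were PARP14 in RGC at 5.20 (2.39 to 12.9), with 1.08 (0.275 to 4.48) in the left eyes and 14.2 (4.44 to 72.4) in the right eyes, and PARP12 in microglia at 4.50 (2.95 to 7.19). Bipolar cells lay between, with 71.6 for DTX3L (34.6 to 179), 47.6 for PARP9 (31.0 to 77.1), 31.1 for PARP12 (26.9 to 36.2) and 16.9 for PARP14 (11.8 to 25.1).

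Whether the response differed between weeks was tested by edgeR over the 6 animals, as week 4 response minus week 2 response, with the eyes of a week 2 animal summed. No pair of gene and class passed the adjusted threshold with edgeR, and 3 pairs gave no usable error, DTX3L in horizontal cells and DTX3L and PARP14 in astrocytes, each without a vehicle UMI in at least 1 of the weeks. An unadjusted p under 0.05 was found for 8 of the 36 pairs, and over all genes in a class for between 927 of 11597 in horizontal cells and 3766 of 19089 in Müller glia. The share of all genes called was 0.160% in rods, 0.0211% in cones, 0.00% in bipolar and amacrine cells, 0.0949% in horizontal cells, 0.282% in RGC, 3.09% in Müller glia, 3.82% in astrocytes and 2.05% in microglia. In Müller glia all 4 differences were negative, at -1.60 for PARP14 (SE 0.42, adjusted p = 0.0838), -0.81 for PARP12 (SE 0.22, adjusted p = 0.0903), -0.99 for PARP9 (SE 0.28, adjusted p = 0.0996) and -1.12 for DTX3L (SE 0.48, adjusted p = 0.249). With left eyes alone they were smaller, at -1.19 for PARP14, -0.51 for PARP12, -0.73 for PARP9 and -0.60 for DTX3L. The rod differences were -2.76 for PARP9 (SE 1.24, adjusted p = 0.293), -3.06 for DTX3L (SE 1.26, adjusted p = 0.257), -0.86 for PARP12 (SE 0.65, adjusted p = 0.511) and 0.05 for PARP14 (SE 0.64, adjusted p = 0.978), and they include the vehicle replicate 1 described above. Without that retina they were -0.55 for PARP9 (SE 0.50), -0.95 for DTX3L (SE 0.80), 0.14 for PARP12 (SE 0.31) and 0.31 for PARP14 (SE 0.80), so the PARP12 value changed sign. Without vehicle replicate 2 instead, the rod differences were -3.51 for PARP9, -3.77 for DTX3L, -1.38 for PARP12 and -0.12 for PARP14. In RGC the PARP14 difference was 2.29 (SE 0.86, adjusted p = 0.356), and it was 4.51 with left eyes alone (adjusted p = 0.106), 3.39 without vehicle replicate 1 (adjusted p = 0.683) and 1.57 without vehicle replicate 2 (adjusted p = 0.753). With 1 animal per arm at week 2, the spread comes from week 4 alone. Leaving out 1 week 4 retina at a time, which was added after seeing the data, gave 1 to 3 calls by edgeR, all in Müller glia and all smaller at week 4. PARP14 was called there without AAV replicate 1 (-1.40, adjusted p = 0.0368, 4.46% of genes called), without AAV replicate 2 (-1.87, adjusted p = 0.00662, 6.07%) and without vehicle replicate 2 (-1.78, adjusted p = 0.0364, 4.82%). PARP9 was called without vehicle replicate 1 (-1.21, adjusted p = 0.0205, 6.21%) and, with DTX3L (-1.48, adjusted p = 0.0351), without AAV replicate 2 (-1.11, adjusted p = 0.0393).

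Among the AAV retinas of week 4, microglia had the highest level of each of the 4 genes and cones the lowest of the 9 classes compared. PARP14 ran from 657 ± 159 CPM (SD, n = 2) in microglia through Müller glia, astrocytes, horizontal cells, RGC, amacrine cells, rods and bipolar cells to 5.62 ± 0.116 CPM in cones. Within that order Müller glia and astrocytes overlapped, as did amacrine cells and rods, while the other neighbours did not. PARP12 ran from 337 ± 40.9 CPM in microglia through Müller glia, horizontal cells, rods, astrocytes, amacrine cells, bipolar cells and RGC to 23.6 ± 4.59 CPM in cones, and no neighbours overlapped. PARP9 followed as microglia (185 ± 31.3 CPM), Müller glia, astrocytes, horizontal cells, rods, bipolar cells, amacrine cells, RGC and cones (10.1 ± 2.42 CPM). Horizontal cells overlapped rods there, and bipolar cells, amacrine cells and RGC overlapped in turn. DTX3L had the order microglia (106 ± 27.9 CPM), Müller glia, astrocytes, horizontal cells, rods, amacrine cells, bipolar cells, RGC and cones (6.31 ± 1.47 CPM). Rods and amacrine cells did not overlap, Müller glia and astrocytes were separated by less than their SD, and the other neighbours overlapped. In the 2 AAV eyes of week 2, which came from 1 animal, the mean of DTX3L was 136 CPM in Müller glia and 109 CPM in microglia. The lower Müller value (113.0 CPM) and the higher microglia value (112.7 CPM) nearly met.

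A comparison of classes within the same retinas asked whether a response was larger in a class than in the mean of the other 8, with retina as a block. The share of all genes called in either direction was 6.07% in rods, 0.469% in amacrine cells, 1.93% in horizontal cells, 0.222% in RGC, 8.07% in Müller glia and 2.76% in astrocytes, where none of the 4 genes was called. With edgeR, 3 of 36 pairs were called, all of them PARP14 and all smaller. The log2 response of PARP14 minus the mean of the other classes was -3.37 in cones (SE 0.62, adjusted p = 0.00327, 1.19% of genes called). The differences were -2.78 in bipolar cells (SE 0.54, adjusted p = 0.00778, 0.840% of genes) and -2.68 in microglia (SE 0.70, adjusted p = 0.0184, 5.63% of genes). Each of these contrasts holds the astrocyte class, in which PARP14 had no vehicle UMI. EdgeR thus gave them no estimable size, and the printed values depend on how that 0 is fitted. The same holds for every other PARP14 contrast in this fit. DTX3L had no vehicle UMI in horizontal cells, so none of its contrasts had an estimable size either. The absence of DTX3L calls in this fit therefore cannot decide whether its response differed between classes.

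Other fits changed which pairs were called. Limma voom called 12 pairs, with PARP14 smaller in cones (-2.50, adjusted p = 0.0013, 3.20% of genes called), in bipolar cells (-1.89, adjusted p = 0.00752, 4.03%) and in microglia (-1.85, adjusted p = 6.06e-04, 56.1%), and larger in Müller glia (1.92, adjusted p = 7.58e-04, 17.5%) and astrocytes (2.33, adjusted p = 0.00476, 13.9%). It also called all 4 genes larger in horizontal cells, by 2.59 to 3.04, where 9.41% of genes were called and where 4 of the 9 gating markers were higher in another class. The remaining 3 of its calls were PARP9 in astrocytes (-2.08) and PARP9 and DTX3L in microglia (-2.23 and -2.48), all smaller. None was called in rods (5.47% of genes), amacrine cells (3.22%) or RGC (4.60%). When the horizontal and astrocyte classes were left out, a choice made after these values had been seen, edgeR called a single pair, PARP14 in Müller glia (2.75, SE 0.30, adjusted p = 1.67e-06), against 9.78% of genes, and none in rods (5.02%), amacrine cells (0.708%) or RGC (0.354%). The cone and bipolar differences of PARP14 were then -1.74 (adjusted p = 0.0565, 0.671% of genes called) and -1.20 (adjusted p = 0.0942, 0.854% of genes called), and that of microglia -1.16 (adjusted p = 0.18, 5.38%).

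RNA released from broken cells can give UMIs in nuclei that do not make a transcript, and PDE6A and GNAT1, parts of the rod light response, were set beside the 4 genes. In AAV retinas of week 4, PDE6A in cones was at 6.54% to 6.76% of its rod level and GNAT1 at 7.07% to 7.39%. The cone levels were 13.9% to 14.7% of rods for PARP9, 16.2% to 18.5% for DTX3L, 15.2% to 17.5% for PARP12 and 21.1% to 36.4% for PARP14. Rod transcripts differ in how much of them is carried over, so the part of carried-over rod RNA in the low cone levels cannot be told apart from transcription in cones. In RGC the shares of PDE6A and GNAT1 were at most 0.743% and 0.921%, and the 4 genes lay from 22.5% of the rod level (PARP9) to 207% (PARP14). Müller glia had at most 2.60% of the rod level of GNAT1 and 142% to 1437% of the rod level of the 4 genes.

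Transcripts of immune cells were followed in the same way, with markers that the gate also used. Of the 15 lymphocyte markers summed in rods of week 4, 0 were without a UMI in AAV and 3 in vehicle retinas, and in lymphocytes themselves the sum was 6297 to 6828 CPM. The 14 microglia markers in rods summed to 29.8 to 38.0 CPM against 26.6 to 27.7 CPM, with every marker detected in both arms. The lymphocyte sum was also higher in AAV cones (36.0 to 42.2 against 12.8 to 25.7 CPM) and bipolar cells (23.8 to 24.2 against 10.0 to 11.7 CPM). In rods of week 2, where the AAV eyes lay above the vehicle eyes for all 4 genes, the lymphocyte sum was 9.16 to 11.8 CPM in AAV and 9.74 to 10.4 CPM in vehicle eyes, and the microglia sum 19.0 to 25.6 against 18.5 to 19.0 CPM. The part of immune cell RNA in the week 4 levels of the 4 genes was not tested.

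The microglia class did not hold the same nuclei in both arms. It had 1149 and 693 nuclei in AAV and 60 and 57 in vehicle retinas at week 4. P2RY12, a marker of resting microglia, was at 544 and 785 CPM against 2110 and 1782 CPM, and CD163, a macrophage scavenger receptor, at 2403 and 1525 against 0 and 9.74 CPM. MRC1, another macrophage receptor, was at 388 and 342 CPM in AAV and had no UMI in vehicle retinas. Over all 14 microglia markers the summed level was 4146 to 5083 CPM in AAV and 3885 to 4096 CPM in vehicle retinas, with 0 and 1 markers without a UMI. The 15 lymphocyte markers summed to 172 to 286 CPM in AAV and 33.9 to 77.9 CPM in vehicle microglia, with 1 and 11 markers without a UMI. The part of this change of composition in the microglia values of the 4 genes was not tested. At week 2 the AAV eyes had 98 and 72 microglia with CD163 at 160 and 110 CPM, and their PARP14 was at 593 and 564 CPM against 113 and 70.5 CPM in the vehicle eyes.

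The 4 genes were raised in nuclei with and without detected vector transcript. In AAV retinas, nuclei with an EGFP UMI were set beside nuclei of the same class and retina without one, wherever at least 50 nuclei had one. Of 96 such comparisons 72 had the higher CPM in nuclei with EGFP and 24 the lower, with a median ratio of 1.16 and a range from 0.388 to 3.14. The 95% counting interval lay above 1 in 28 of them and below 1 in 0. More of these 28 came from the right AAV eye of week 2 than from the other AAV retinas together. The comparisons share retinas and nuclei, so they are not independent of each other. Over all genes with at least 10 UMIs in such a comparison, the CPM was higher in nuclei with EGFP in 49.1%, and the interval lay above 1 in 5.56% and below 1 in 4.66%. In rods the median ratio over the 4 AAV retinas was 1.13 for PARP9, 1.08 for DTX3L, 1.27 for PARP14 and 1.13 for PARP12. Müller glia gave 0.959, 1.07, 1.09 and 1.03 in the same order over 3 retinas. Cones gave medians of 1.83 for DTX3L, 1.55 for PARP12 and 1.51 for PARP9, while PARP14 in cones ranged from 0.388 to 1.45. RGC gave medians of 0.991 for PARP9, 1.16 for PARP12, 1.25 for DTX3L and 1.60 for PARP14, the last with a range from 0.752 to 2.30. Nuclei with an EGFP UMI also held more UMIs in all, for example a median of 4695 against 3419 in bipolar cells of week 4 replicate 2, and the part of depth and of carried-over RNA was not tested. Nuclei without an EGFP UMI alone, which can still hold vector, gave 34 calls at week 4 where all nuclei gave 35, with 1 pair not tested.

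**Figure D4:**
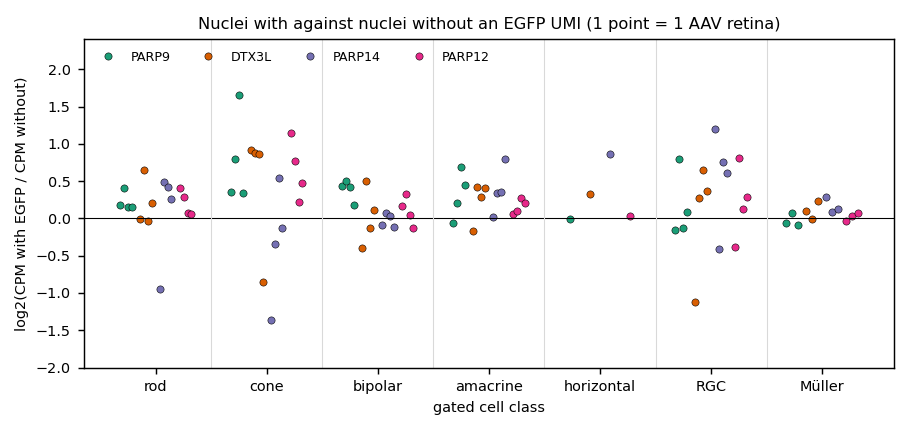
Log2 of the CPM in nuclei with an EGFP UMI over the CPM in nuclei without one on the y axis, by gated class on the x axis, with 1 point per AAV retina and gene. Most points lie above 0, 72 of 96, and no 95% counting interval lies wholly below it.

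The rest of the PARP family did not move as a block. Of 14 other ADP-ribosyltransferases 11 were found by symbol, and at week 4 between 1 and 5 of the 9 to 11 tested in a class were called higher and none lower. Among all genes tested in a class, 0.956% to 11.3% were called higher. The median log2 difference of this list lay between 0.04 and 0.38 over classes, beside -0.01 to 0.15 for all genes tested. ZC3HAV1, the zinc-finger antiviral protein, was called in 9 of 9 classes, for example at 46.8 and 50.9 against 1.91 and 2.17 CPM in rods. PARP3, a DNA repair enzyme, was called in 6 of 9, with 48.7 and 66.4 against 6.34 and 8.64 CPM in Müller glia. PARP8 was called in 5 of 9, with 229 and 238 against 33.9 and 29.2 CPM in microglia. PARP11 was called in microglia alone (2.21, SE 0.41, edgeR adjusted p = 0.0043), and TIPARP in 2 of the 8 classes where it was tested. PARP1 and PARP2, the DNA damage sensors, were called in none, with log2 differences from -1.00 to 0.36 and from -1.34 to 0.54. PARP1 came nearest to a call in Müller glia, at 20.6 and 20.4 against 27.3 and 30.7 CPM (adjusted p = 0.0539).

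**Figure D5:**
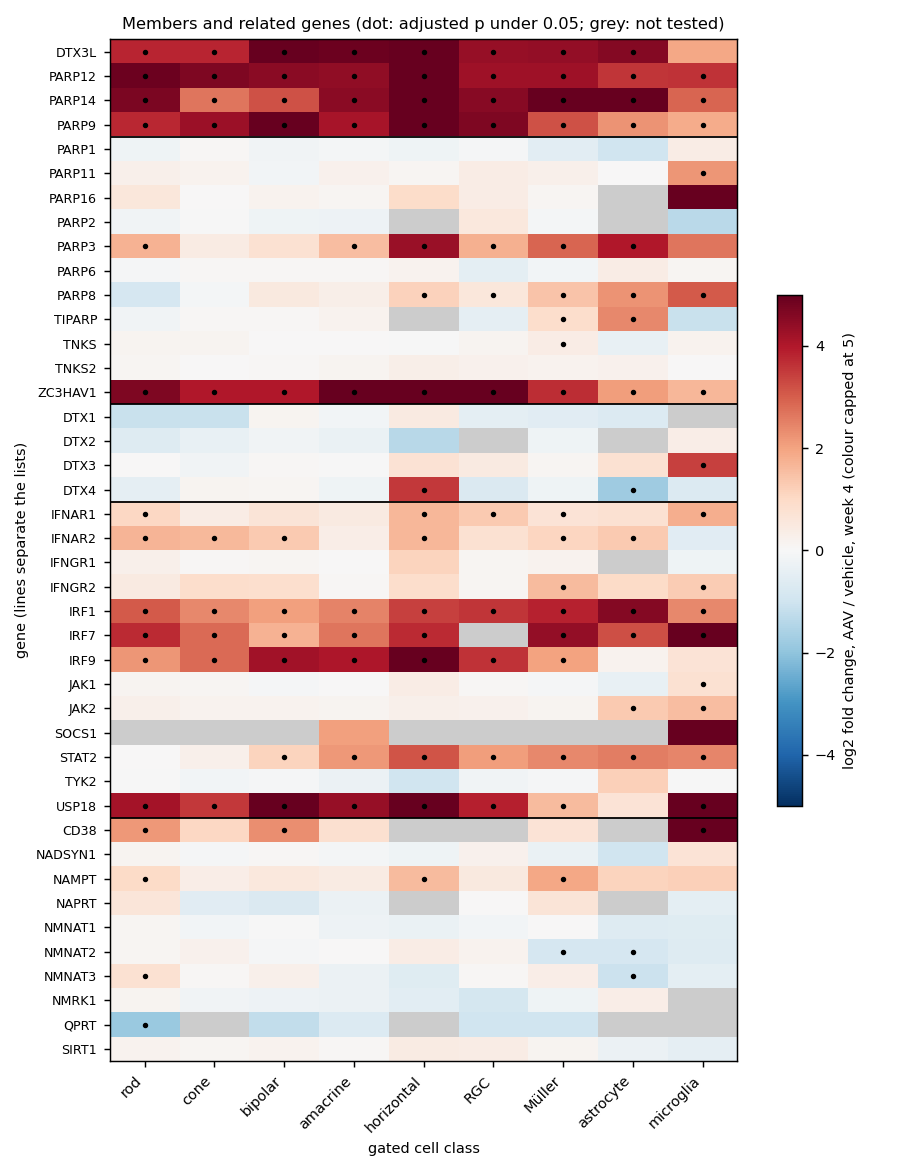
Heat map of the log2 difference of AAV minus vehicle at week 4 by edgeR, with the 4 genes and the genes reported from 4 related lists on the y axis and gated classes on the x axis. Colour is capped at 5, a dot marks an adjusted p under 0.05 and grey marks a class in which the gene was not tested. The 4 genes and ZC3HAV1 form dark red bands, while PARP1, PARP2, PARP6 and TNKS2 have no dot.

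Among the other DTX ligases, DTX1 and DTX2 were called in no class, DTX3 was higher in microglia (142 and 152 against 22.6 and 9.74 CPM), and DTX4 was higher in horizontal cells and lower in astrocytes (17.7 and 19.3 against 74.8 and 60.8 CPM). The genes that remove or read ADP-ribose gave 0 to 4 higher and 0 or 1 lower calls per class among 7 to 12 tested, where 0.956% to 11.3% of all genes tested in a class were called higher. CHD1L, a chromatin remodeller that reads ADP-ribose, led them with 3 of 9 classes, at 200 and 200 against 117 and 131 CPM in rods. ADPRH was higher in rods (23.3 and 23.1 against 12.9 and 12.7 CPM) and RNF146 in Müller glia (35.7 and 37.9 against 25.2 and 23.7 CPM), while MACROD2 was lower in Müller glia (173 and 137 against 328 and 321 CPM) and microglia. PARP4, PARP10, PARP15, ADPRHL1 and SARM1 were not analysed here.

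NAD is the substrate of these enzymes, and the genes that supply or use it gave 0 to 3 higher and 0 to 2 lower calls per class among 7 to 10 tested. Of all genes tested, 1231 of 20962 were called higher and 1288 lower in rods, and 486 of 8043 higher and 538 lower in astrocytes. NAMPT, the rate-limiting enzyme of NAD salvage, was called higher in 3 of 9 classes. It measured 69.2 and 77.5 against 20.4 and 17.5 CPM in Müller glia (1.93, SE 0.15), and its log2 difference was positive in all 9, from 0.35 upwards. CD38, an enzyme that consumes NAD, was higher in rods, bipolar cells and microglia, the last with 77.8 and 81.3 CPM in AAV and no UMI in vehicle retinas. NMNAT2 was lower in Müller glia (-0.85) and astrocytes (-0.83), QPRT was lower in rods (-1.84), and NMNAT3 was higher in rods (0.78) and lower in astrocytes (-1.08).

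Genes that carry the interferon signal to the nucleus were called higher in 6 to 9 of the 12 to 14 tested per class and lower in none. Over the same classes, 0.956% to 11.3% of all genes tested were called higher. The median log2 difference of this list lay between 0.87 and 1.67 over classes, beside -0.01 to 0.15 for all genes tested. IRF1, a transcription factor, was called in 9 of 9 classes, with log2 differences from 2.04 to 4.58, and USP18, a brake on the interferon receptor, in 8 of 9. STAT2 and IRF9, which act in 1 transcription factor complex, were each called in 7 of 9. The exceptions for STAT2 were photoreceptors, with 117 and 94.3 against 108 and 112 CPM in rods and a log2 difference of 0.25 (SE 0.12, edgeR adjusted p = 0.347) in cones. Those for IRF9 were astrocytes, with a log2 difference of 0.18 (SE 0.38, edgeR adjusted p = 0.811), and microglia, with 0.67 (SE 0.50, adjusted p = 0.47). All of these lists were chosen with earlier results of these data known.

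Across the 72 sums of 9 classes in 8 retinas, the pattern of each of the 4 genes was compared with 16560 genes. As a description, with no p because the points share retinas and classes, Pearson's r of log2(CPM + 1) was 0.94 between PARP9 and DTX3L, 0.95 between PARP12 and each of PARP9 and DTX3L, 0.94 between PARP14 and DTX3L, 0.89 between PARP14 and PARP12 and 0.88 between PARP14 and PARP9. The nearest gene to PARP9 was IFI44L (0.97), to PARP12 HERC6 (0.96), to DTX3L PARP12 (0.95) and to PARP14 MX2 (0.96). Also among the nearest 5 were ZC3HAV1 and EPSTI1 for PARP9, EPSTI1 and HERC6 for DTX3L, OAS2 and RIGI for PARP14, and IFI44L and IFIH1 for PARP12. Of the 5 genes nearest to PARP14, DTX3L was the single one among the 4 genes. With the week 4 retinas alone, 12 of the 20 nearest genes were again among the nearest 5.

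Summed over all kept nuclei of a retina, the 4 genes were called higher at week 4, against 6.71% of genes tested. PARP9 was at 50.5 and 61.4 against 4.69 and 2.95 CPM (3.88, SE 0.26, edgeR adjusted p = 8.79e-04). DTX3L was at 24.8 and 36.2 against 2.02 and 0.716 CPM (4.48, SE 0.50, adjusted p = 0.00545). Leaving out 1 retina at a time gave 3.58 to 4.26 for PARP9 and 3.92 to 5.42 for DTX3L, both highest without vehicle replicate 1. PARP14 was at 59.6 and 58.6 against 1.53 and 1.32 CPM (5.38, SE 0.14, adjusted p = 1.3e-04), and PARP12 at 111 and 122 against 5.09 and 3.92 CPM (4.70, SE 0.18, adjusted p = 1.56e-04). In such a sum the number of nuclei of each class and the level per nucleus cannot be told apart. At week 2 the whole-retina level of PARP14 was 50.3 CPM in the left and 111 CPM in the right AAV eye of the same animal, against 0.915 and 0.958 CPM in the vehicle eyes. The right eye also had more EGFP, with 9240 UMIs in 6032 nuclei against 3822 UMIs in 2823 nuclei of the left eye.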

How the data were processed

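The authors sequenced retinal nuclei of 8 pig retinas and counted UMIs with Cell Ranger 8.0.0 against Sscrofa11.1, per the submitters' processing notes. They deposited raw UMI counts, not normalized, as filtered matrices for 4 lanes per retina, with no cell type for a nucleus. All values here start from these deposited counts.

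Nuclei were kept where a mixture fit relating mitochondrial UMIs to detected genes placed them among intact nuclei (posterior 0.75). Each was gated by a multinomial likelihood over marker UMIs (margin of 3 natural log units, at least 3 UMIs of 2 own markers). Another 41163 nuclei (11.7%) that an even mixture of 2 classes explained better were left out as possible doublets. KDR, FLT1, EBF1, CA10 and MEGF11 (5 markers) were dropped from the gate after their values were seen.

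UMIs were summed per retina and class. Tests used R 4.3.3 with edgeR 4.0.16 (quasi-likelihood, TMM, filterByExpr, Benjamini-Hochberg), with DESeq2 1.42.0 and limma 3.58.1 as alternatives. On simulated data, made for rods and microglia only, 15.45% and 5.36% of edgeR's week 4 calls were false. It recovered 78% of 4-fold changes in rods and 38% in microglia. The comparison between classes recovered 62% of 4-fold changes simulated in Müller glia alone. A missing call is thus weak evidence of no difference. At week 2 there was 1 animal per arm and no test. CPM used a pseudocount of 1 where logged. Poisson and ratio intervals are exact at 95%, cover counting error only and take UMIs as molecules. Depth per retina was 111704702 to 164085422 UMIs, and a vehicle count of 0 is bounded by 3 counts. Batch labels coincide with groups, so no batch term was fitted.

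The members and lists were chosen with earlier results of these data known. Named were the 4 genes in every class, the genes of each list called in most classes (up to 3 per list and direction), 11 fixed relatives, and the 5 genes nearest in pattern to each. CD163, MRC1, P2RY12, PDE6A, GNAT1, MX1, IFIT1, ISG15, IRF7, SP140 and SP110 were named after their values were seen. So were PTPN14, CADPS2, CDKL4, CENPS, COL24A1 and TMEM268. Alternatives covered scaling, count model, filters, gate, depth, EGFP-negative nuclei and leaving out retinas. Keeping mixed nuclei, the class test without 2 classes, the week test without each week 4 retina and the EGFP split were added after seeing the data. Some genes that these rules name are not reported here.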

Additional observations from a re-analysis of the deposited data

Results flagged for a closer look

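The AAV response of PARP14 at week 4 differed between classes in edgeR's test of each class against the mean of the others with retina as a block. It was smaller in cones (-3.37 on the log2 scale), bipolar cells (-2.78) and microglia (-2.68). These sizes rest on astrocytes without a vehicle UMI, and without the horizontal and astrocyte classes the differences were -1.74, -1.20 and -1.16 and none of them passed the threshold.

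Signal was also present in nuclei that no comparison used because too few were found. Vascular nuclei of AAV retinas at week 4, 18 and 31 in number, had mean levels of 75.0 CPM for PARP9, 87.5 CPM for DTX3L, 362 CPM for PARP14 and 208 CPM for PARP12, and the vehicle means, over 38 and 110 nuclei, were 11.9, 4.77, 7.16 and 8.94 CPM. Lymphocytes, 1046 and 872 nuclei in AAV retinas of week 4 and 0 in vehicle retinas, had 185 CPM of PARP9, 101 CPM of DTX3L, 624 CPM of PARP14 and 253 CPM of PARP12. For lymphocytes no vehicle value exists to set beside them, and no difference was tested.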

How the results depend on the processing

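The 35 of 36 pairs called higher at week 4 became 34 with DESeq2 and with nuclei without EGFP, 36 with mixed nuclei kept, 35 under the other settings of scaling, filter, depth and gate, and 27 to 36 on leaving out 1 retina at a time. The 4 whole-retina calls stood on leaving out any retina (4 to 4). At week 2 the 35 pairs past 4-fold became 34 in either eye alone and 35 after TMM scaling. The difference between weeks gave 0 calls with left eyes alone and with RLE size factors, and 1 to 3 on leaving out 1 week 4 retina at a time. The difference between classes gave 3 calls with edgeR, 12 with limma voom and 1 without the horizontal and astrocyte classes, and the voom fit assumes another variance model. Of the 20 nearest genes 12 stayed with week 4 alone and 14 with a pseudocount of 10. Over single values 450 alternatives gave 431 with the call unchanged, 15 that lost it, 4 that gained it (DTX3L in microglia) and 0 that changed direction. Counts of all genes called moved with the count model, the filter, the gate and the retinas used, and the cause was not tested. They ran from 2589 to 4501 in Müller glia (main value 3996), 302 to 1069 in horizontal cells (450) and 581 to 1496 in astrocytes (1024). Those lower ends came from DESeq2 and those upper ends from the fit without a filter on low counts. That fit also gave the highest counts in rods (4531, main value 2519), cones (607, 279), amacrine cells (1371, 423) and microglia (1487, 1095). In bipolar cells the highest, 873 against a main value of 462, came with mixed nuclei kept. Outside Müller glia, horizontal cells and astrocytes, the lowest count came with a retina left out. In RGC (main value 379) and the whole retina (2979) the highest count did too. No paired analysis was possible because replicate numbers of the groups name different animals that share no litter or day in the labels. Depth limits astrocytes, horizontal cells, RGC and vehicle microglia, where a gene often had 6 or fewer vehicle UMIs.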
